A study of Mus musculus with 31 samples.

Results

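Mptx1, Mptx2, Sycn and Spink1, 4 of the 27623 genes in an RNA sequencing table of mouse colon, were taken from the table by their symbols and followed across all 31 libraries. They encode secreted or granule proteins of the gut, and they were chosen for how their levels differed between the genotypes, so those differences are given here as descriptions without a test. Mptx1, Sycn and Spink1 passed the filter on low values (at least 1 FPKM in at least 10 libraries, met by 12812 genes). Mptx2 did not. FPKM count fragments relative to the length of the gene and the depth of the library, so levels of different genes can be set side by side as far as the authors' gene lengths hold. The step of a single fragment implied a length of 422 bases for Spink1 (729 in GENCODE) and 694 for Mptx2 (794 in GENCODE), against 803 for Mptx1 (799) and 557 for Sycn (556). At GENCODE lengths the levels of Spink1 and Mptx2 would be lower in every library, while the ratio of a gene between groups would not change. The DHO group (n = 10) was TAK1 IEC-KO and Tradd IEC-KO, the HO group (n = 10) was TAK1 IEC-KO alone, and the WT group (n = 11) carried the floxed Tak1 allele Tak1f/f. IEC stands for intestinal epithelial cells. All 3 groups carried Ripk1 D138N/D138N, a mutation of the kinase domain of RIPK1, so WT colons are not wild type at Ripk1. Tissue was taken at 7 days post induction. No source used here names the Cre driver, the inducing agent or the age and sex of the mice. The study asked for the role of TRADD in the colitis of TAK1 IEC-KO mice.

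TAK1 is a kinase that relays signals of TNF and Toll-like receptors to NF-kB and MAP kinases, and TRADD is an adaptor of TNF receptor signalling. Mptx1 and Mptx2 encode mucosal pentraxins, relatives of C-reactive protein that are made by the intestinal epithelium. Pentraxins form ring-shaped multimers that bind phosphocholine and other surface ligands in the presence of calcium. Sycn encodes syncollin, a protein on the inner face of zymogen granule membranes that is best known from pancreatic acinar cells. Spink1 encodes a secreted Kazal-type inhibitor of trypsin, known for guarding the pancreas against premature trypsin activity.

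Mptx1 (ENSMUSG00000026531.4) lies on chromosome 1 from 174330518 to 174332877 on the plus strand, and Mptx2 (ENSMUSG00000079180.4) on the same chromosome from 173274461 to 173277756 on the minus strand. These positions are from RefSeq on GRCm38.p6. The pair is 1053 kb apart, with 25 protein-coding genes between them. Sycn (ENSMUSG00000084174.3) lies on chromosome 7 from 28540885 to 28542210 on the plus strand. The 250 bases before the start of Mptx1, Mptx2 and Sycn, from the RefSeq table, are printed 5′ to 3′ on the strand of each gene because the first 2 differ in level by several orders of magnitude while their sequences are close. Capitals mark TATAA (the TATA box), GTTAAT (an arm of the palindrome bound by HNF1 factors) and TTTAT (the core element of CDX factors), searched on both strands, and neighbouring matches may overlap.
Mptx1: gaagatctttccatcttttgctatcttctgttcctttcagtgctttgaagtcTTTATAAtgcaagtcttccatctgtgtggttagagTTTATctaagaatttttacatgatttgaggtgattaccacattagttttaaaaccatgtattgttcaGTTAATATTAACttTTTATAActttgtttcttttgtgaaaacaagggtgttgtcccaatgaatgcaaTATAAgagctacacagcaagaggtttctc
Mptx2: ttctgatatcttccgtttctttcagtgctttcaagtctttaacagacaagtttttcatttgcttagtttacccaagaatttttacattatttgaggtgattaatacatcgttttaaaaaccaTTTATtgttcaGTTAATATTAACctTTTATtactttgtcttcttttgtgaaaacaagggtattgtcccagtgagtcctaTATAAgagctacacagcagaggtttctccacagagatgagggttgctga
Sycn: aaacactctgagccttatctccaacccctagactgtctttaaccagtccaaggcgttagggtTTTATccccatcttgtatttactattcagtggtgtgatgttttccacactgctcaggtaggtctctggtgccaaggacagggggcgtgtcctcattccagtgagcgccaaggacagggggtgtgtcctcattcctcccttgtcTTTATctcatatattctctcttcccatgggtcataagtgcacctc

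The Mptx1 and Mptx2 stretches were identical at 197 of 236 aligned positions (83.5%). Both hold GTTAATATTAAC, in which GTTAAT matches on both strands, with the first match 96 bases before the start of Mptx1 and 117 bases before that of Mptx2. Both also hold TATAA followed by gagctacacagca, 29 bases before the start of Mptx1 and 49 bases before that of Mptx2. TATAA and GTTAAT did not match in the Sycn stretch. Of 32851 promoter stretches of the same length, 22.8% hold TATAA, 6.43% hold GTTAAT and 37.3% hold TTTAT, so each match describes the letters alone. The transcripts of Mptx1 and Mptx2 were identical at 734 of 795 aligned positions (92.3%), with an identical run of 112 bases. No source used here says how reads that fit both genes were counted, so the separate values of this pair are uncertain, those of the low Mptx2 above all.

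Depth, recovered from the step that a single fragment makes in the FPKM of low genes, was 30790000 to 40390000 fragments per library with a mean of 37020000. Tradd, the gene deleted in DHO, was at 1.36 to 3.89 FPKM in DHO, 12.4 to 59.2 FPKM in HO and 45.9 to 97.5 FPKM in WT. Map3k7, which encodes TAK1, was at 8.42 to 16.7 FPKM in DHO, 11.6 to 16.9 FPKM in HO and 8.29 to 13.6 FPKM in WT, so whole-tissue values do not show its epithelial deletion. Whether the libraries came from separate animals is not stated, so the p-values below measure the spread between libraries only. HO 2 stood apart from its group in a pan-epithelial score, the mean log2(FPKM + 0.5) of 14 epithelial genes such as Epcam, Vil1 and Cdh1. DHO 8 and DHO 9 had the lowest DHO scores, 7.78 and 8.31, against 8.49 to 8.98 in the other 8 DHO libraries. DHO 9 lay within the WT range. HO 2 scored 8.41, against 0.25 to 5.69 in the other 9 HO libraries and 8.27 to 8.63 in WT. DHO 8 and DHO 9 also held the lowest DHO levels of Mptx1, Sycn and Spink1, so leaving them out is not independent of those levels. HO 2, DHO 8 and DHO 9 are treated separately below.

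Mptx1 was the 13th most abundant transcript of the WT colon by median and was nearly absent in HO. It was at 22.1 (lowest), 1289 (median) and 3394 FPKM (highest) in DHO, at 0, 0.095 and 5.19 FPKM in HO, and at 1361, 2291 and 3968 FPKM in WT. The HO libraries lay below every DHO and every WT library, while DHO and WT overlapped. In fragments, the HO libraries held 178 in all, of which 143 came from HO 10 and 22 from HO 6, and HO 1, 2, 3 and 4 held none. A count of 0 allows up to 3 fragments, which is 0.096 FPKM in HO 2, a level at least 23000-fold lower than the WT median. On the log2(FPKM + 0.5) scale the difference was -11.58 for HO against WT (SE 0.613) and 10.09 for DHO against HO (SE 0.627). These sizes depend on the pseudocount because HO is near 0.

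Sycn followed the same order of groups. It was at 4.13 (lowest), 519.6 (median) and 2035 FPKM (highest) in DHO, at 0, 0.052 and 25.6 FPKM in HO, and at 875.5, 1991 and 2577 FPKM in WT. HO lay below every WT library, and DHO overlapped with HO (HO 2 above DHO 8) and with WT. In HO, 5 libraries held no fragment and HO 2 held 554 of the 605 fragments of the group. The log2 difference was -10.75 for HO against WT (SE 0.805) and 8.54 for DHO against HO (SE 0.824). The WT median ranked 18th in the table.

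Spink1, the inhibitor (ENSMUSG00000024503.3, chromosome 18, 43728069 to 43737237), had the lowest WT level of the 3 abundant genes and was the one whose DHO median lay above the WT median. It was at 12.7 (lowest), 855.5 (median) and 1618 FPKM (highest) in DHO, at 0, 0.27 and 54.4 FPKM in HO, and at 242.8, 603 and 1437 FPKM in WT. HO lay below every WT library, while DHO overlapped with HO through HO 2 and DHO 8, and its range held the whole WT range. HO 2 held 893 of the 936 HO fragments. The log2 difference was -9.24 for HO against WT (SE 0.754) and 8.65 for DHO against HO (SE 0.772).

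Mptx2 stayed at a few fragments per library in every group. It had 0 to 11 fragments in DHO (29 in all), 1 fragment in all of HO, and 1 to 19 fragments in WT (71 in all), or medians of 0.040, 0 and 0.188 FPKM in DHO, HO and WT. The highest HO library and the lowest WT library each held 1 fragment, so the gap between those groups (0.036 and 0.040 FPKM) is one of depth alone. The log2 difference on the same scale was -0.54 for HO against WT, where the pseudocount exceeds most values.

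Groups of HO and WT did not overlap for Mptx1, Sycn and Spink1, all lower in HO, where 15.9% of the tested genes were lower without overlap. For Mptx2, which was not tested, the groups were apart in FPKM by depth alone. For DHO against HO, Mptx1 alone was higher without overlap, where 7.27% of the tested genes were. For DHO against WT all 4 genes overlapped, where 0.0859% of tested genes were lower without overlap. The genes were chosen on these contrasts, so nothing is read from these counts. The median of all tested genes moved by -0.06, 0.10 and 0.02 on the log2 scale in HO against WT, DHO against HO and DHO against WT. In bulk tissue, fewer cells of a type and less RNA per cell cannot be told apart.

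**Figure D1:**
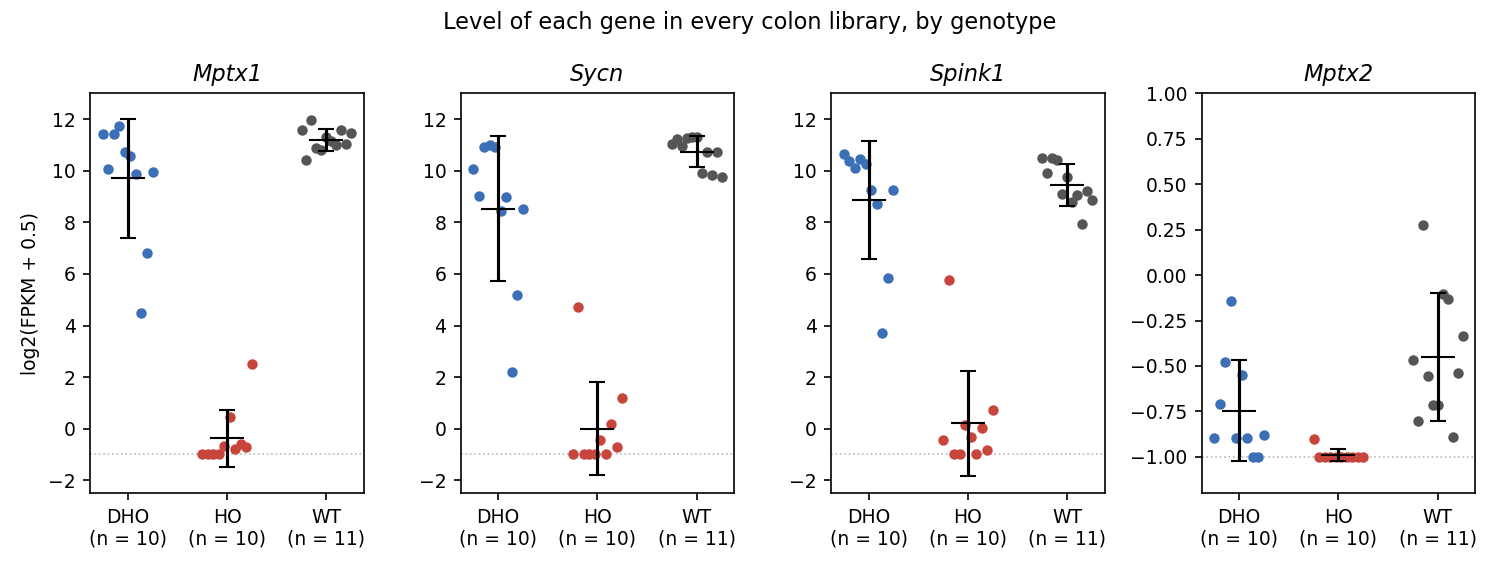
Level of each gene as log2(FPKM + 0.5) on the vertical axis, with 1 point per library in DHO (n = 10), HO (n = 10) and WT (n = 11), bars for mean ± SD and a dotted line at 0 FPKM. Mptx2 has its own axis. The HO points lie on or near the line for Mptx1 other than HO 10 (5.19 FPKM), whereas HO 2 stands above it for Sycn (25.6 FPKM) and Spink1 (54.4 FPKM), and DHO 8 and DHO 9 stand below the other DHO points.

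Differences between DHO and WT rested largely on DHO 8 and DHO 9. For DHO against WT the log2 difference was -1.49 for Mptx1 (SE 0.613), -2.21 for Sycn (SE 0.805) and -0.59 for Spink1 (SE 0.754). Without DHO 8 and DHO 9 it was -0.48 for Mptx1, -1.005 for Sycn and 0.43 for Spink1, which turned its direction. The other 8 DHO libraries held 928.7 to 3394 FPKM of Mptx1, 346.9 to 2035 FPKM of Sycn and 419.2 to 1618 FPKM of Spink1. The proportions of the genes to each other were read per library. Sycn over Spink1 had a median ratio of 0.653 in DHO (0.325 to 1.78) and of 2.54 in WT (1.39 to 4.75). At GENCODE lengths these medians would be 1.13 in DHO and 4.40 in WT, so whether Sycn lay above or below Spink1 in DHO depends on the length used. Mptx1 over Sycn had a median ratio of 2.28 in DHO (0.886 to 5.36) and of 1.25 in WT (0.557 to 3.31). Both ratios overlapped between the groups, and their difference was not tested.

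HO 2 had nearly as much epithelial RNA as WT colon but no Mptx1 fragment. It held 543 FPKM of Epcam (the epithelial adhesion molecule, WT median 824.8) and 178.9 FPKM of Vil1 (a brush border protein, WT median 180.1). Secretory cell transcripts were also present. The 11 goblet cell genes had a median difference of -1.28 from the WT median on the log2 scale, with 7 of 11 below it, and Zg16, a secreted lectin, was at 1128 FPKM (WT median 2731) and the trefoil peptide Tff3 at 394.2 FPKM (WT median 1416). Others were near or above it, with 81.8 FPKM of the mucin Muc2 (WT median 59.2), 322.9 FPKM of the lectin Reg4 (WT median 329.3) and 754.8 FPKM of the Kazal inhibitor Spink4 (WT median 639.3). Against the WT median, Mptx1 lay at -12.16 on the log2 scale in HO 2, the lowest of all 12812 genes tested, Sycn lay at -6.26 (15th) and Spink1 at -3.46 (133rd). A gene of high WT level has more room to fall on this scale. All 3 were below every WT library in HO 2, as were 29.6% of tested genes.

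Losses in HO 2 were uneven among epithelial genes. Clca1, a secreted goblet cell protein, was at 24.5 FPKM in HO 2 against a WT median of 570.2, and the hormone Insl5 was at 0.63 against 76.6. Retnlb, a goblet cell protein of inflamed gut, was at 282.5 in HO 2 against 0.99, and the differentiation keratin Krt20 at 610.1 against 284.5. Genes of distal colon position were low as well. Hoxb13, a homeobox gene of the distal gut, was at 0 FPKM in HO 2 against a WT median of 413.2. The list score of 5 such genes was -0.44 in HO 2, against 1.19 (median) in HO and 4.17 to 5.19 in WT. No other HO library scored lower on it. The neutrophil score of HO 2 was 7.24, against 0.39 to 1.21 in WT. The part of colon position and of inflammation in the level of Mptx1 in this library was not tested.

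DHO 8 and DHO 9 showed the same combination of epithelial RNA with low levels of the 3 genes. DHO 8 held 22.1 FPKM of Mptx1, 4.13 of Sycn and 12.7 of Spink1, or -6.66, -8.75 and -5.51 on the log2 scale against the WT median, and Sycn was the lowest of all tested genes there. DHO 9 held 112.6 FPKM of Mptx1, 36.0 of Sycn and 56.9 of Spink1, or -4.34, -5.77 and -3.39. The 14 pan-epithelial genes had a median difference of -0.78 in DHO 8 and -0.38 in DHO 9. The goblet cell list had -3.03 and -1.85, the enteroendocrine list 0.64 and 0.90, and the smooth muscle list -2.43 and -1.92 in DHO 8 and DHO 9. Other epithelial genes were low there too. The colonocyte list had -3.40 and -2.13, with 8 of 10 genes below the WT median in each, and 3 pancreatic granule genes -5.59 and -4.75. Atoh1 lay at -4.08 and -3.61 and Reg4 at -4.44 and -5.03. The colonocyte gene Cyp2c55 lay at -8.699 in DHO 8 and at -8.685 in DHO 9, the lowest of all tested genes in DHO 9. Neutrophil scores were 7.67 in DHO 8 and 5.70 in DHO 9, and distal colon position scores 2.99 and 3.19, against 2.96 to 4.77 in the other DHO libraries. Their part was not tested.

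**Figure D2:**
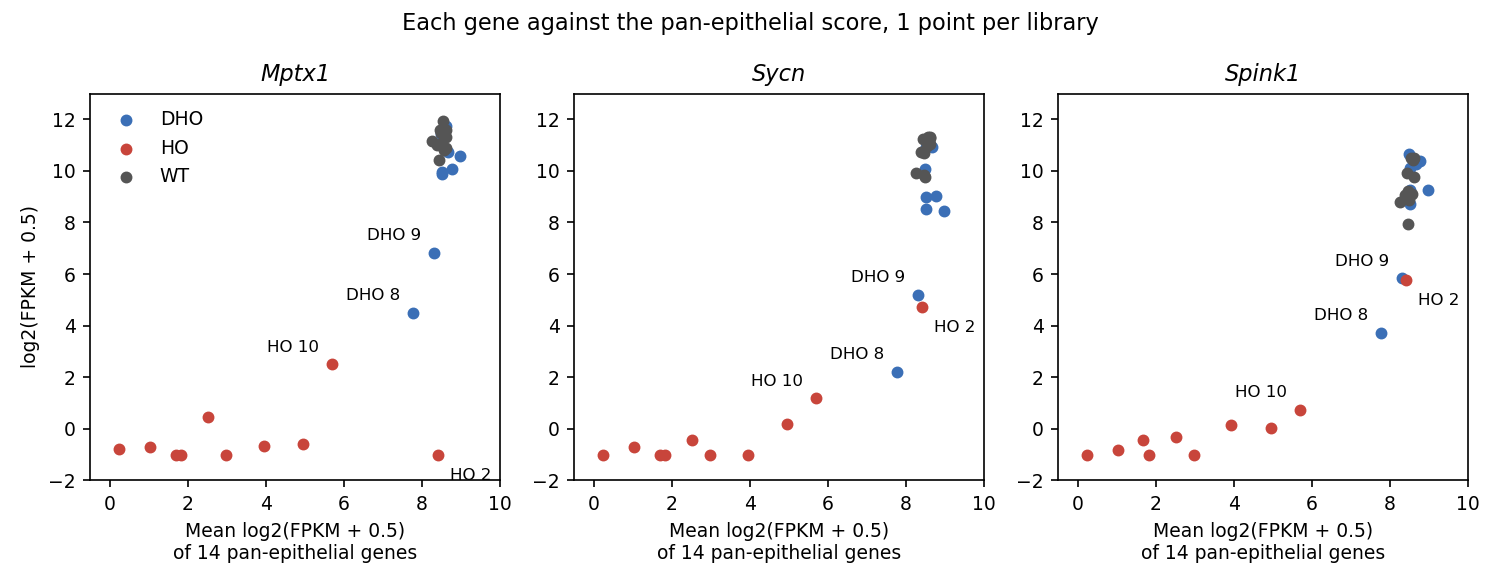
Level of Mptx1, Sycn and Spink1 as log2(FPKM + 0.5) on the vertical axis against the pan-epithelial score (mean log2(FPKM + 0.5) of 14 genes) on the horizontal axis, 1 point per library, coloured as DHO, HO or WT. HO 2, DHO 8 and DHO 9 lie to the right with the WT libraries but well below them. Mptx1 in HO 2 is at 0 FPKM at a score of 8.41.

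**Figure D3:**
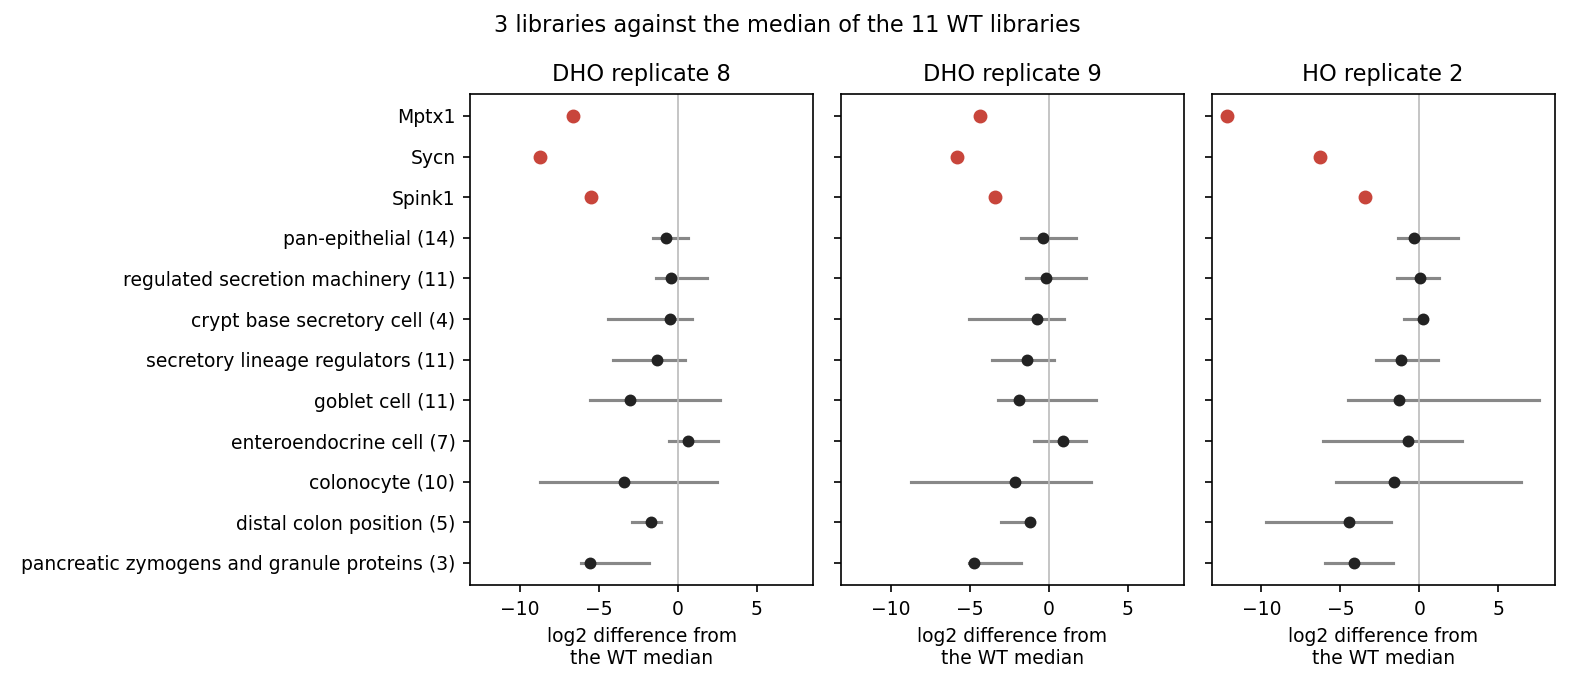
Difference on the log2 scale between DHO replicate 8, DHO replicate 9 or HO replicate 2 and the median of the 11 WT libraries. Red points are Mptx1, Sycn and Spink1, black points are list medians with the number of genes tested in parentheses, and grey lines run from the lowest to the highest gene of a list. The pan-epithelial median lies at -0.78, -0.38 and -0.37 in DHO 8, DHO 9 and HO 2, while the 3 genes lie between -12.16 and -3.39.

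The relatives of each gene were examined next, with limma across all tested genes, of which 71.4% passed in HO against WT, 68.7% in DHO against HO and 21.2% in DHO against WT. Of the other pentraxins, 7 of 8 listed genes were in the table and 2 were tested. Ptx3, a long pentraxin made by stromal and myeloid cells, moved opposite to Mptx1. It was at 6.01 ± 14.9 FPKM in DHO, 88.5 ± 22.7 in HO and 0.063 ± 0.041 in WT (SD), and rose in HO against WT (log2 difference 7.26, SE 0.556, limma adjusted p = 9.233e-13). In DHO it lay below HO (-6.03, SE 0.569, limma adjusted p = 1.324e-10), and the highest DHO library reached 47.2 FPKM. Svep1 did not pass the threshold in any of the 3 comparisons, and Crp did not exceed 0.53 FPKM. Apcs was not analysed here.

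Spink4, a Kazal inhibitor of goblet cells, was the tested relative of Spink1. It was at 799.5 ± 484.6 FPKM in DHO, 77.8 ± 237.9 in HO and 720.4 ± 219.9 in WT (SD). It fell in HO against WT (log2 difference -7.92, SE 0.841, limma adjusted p = 8.465e-10) and was 7.68 higher in DHO than in HO (SE 0.861, limma adjusted p = 3.637e-09). In DHO against WT it did not pass the threshold (-0.24, limma adjusted p = 0.863). HO 2 held 754.8 FPKM of Spink4, above the WT median, and 54.4 FPKM of Spink1, below every WT library.

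Syncollin belongs to pancreatic zymogen granules, so the pancreatic genes were read for acinar tissue in the samples. Of 24 listed genes 16 were in the table and 3 passed the filter. Defining acinar transcripts were at or near 0: the trypsinogen Prss2 did not exceed 0.157 FPKM in any library, the carboxypeptidase Cpa1 0.016 FPKM and the lipase Pnlip 0.085 FPKM. The 3 tested genes, the elastase Cela1, the colipase Clps and the lipase-related Pnliprp1, all fell in HO against WT, where 38.4% of tested genes fell, and were all higher in DHO than in HO (39% of tested genes). Cela1 was at 226.5 ± 159.8 FPKM in DHO, 8.61 ± 6.73 in HO and 440.6 ± 121.8 in WT (SD), a log2 difference of -5.80 for HO against WT (SE 0.547, limma adjusted p = 7.038e-11). All 3 were also lower in DHO than in WT, where 8.7% of tested genes were. For Clps the difference was -1.83 (SE 0.462, limma adjusted p = 0.00733), and 2 of the 3 passed without DHO 8 and DHO 9.

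Secretory cell genes were low in HO together with Mptx1, Sycn and Spink1. Of 11 goblet cell genes tested, 10 fell in HO against WT and none rose (median -5.66), where 38.4% of tested genes fell, and all 11 were higher in DHO than in HO (median 6.08), where 39% of tested genes were. Retnlb was the 1 that did not pass in HO (-0.48), and the 1 that rose in DHO against WT (3.23). Without HO 2 all 11 fell. Of 11 regulators of the secretory lineage tested, 10 fell in HO and 1 rose, and 10 were higher in DHO than in HO. Atoh1, the transcription factor that opens the secretory lineage, was at 15.6 ± 10 FPKM in DHO, 0.747 ± 2.13 in HO and 22.2 ± 3.01 in WT (SD), a difference of -4.94 for HO against WT (SE 0.475, limma adjusted p = 1.035e-10). Foxa2 also fell (-4.77, SE 0.351, limma adjusted p = 4.226e-13). Xbp1, a regulator of secretory protein folding, was the 1 that rose in HO (0.60).

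Other epithelial lists fell in HO as well. Among all tested genes, 33% rose and 38.4% fell in HO against WT. In DHO against HO, 39% of tested genes were higher and 29.7% were lower. All 14 pan-epithelial genes (median -5.44), 9 of 10 colonocyte genes (median -5.72, 10 of 10 without HO 2) and 6 of 7 enteroendocrine genes (median -2.26) fell in HO against WT, and 14 of 14, 10 of 10 and 6 of 7 were higher in DHO than in HO. The remaining enteroendocrine gene, Sst, rose in HO and was lower in DHO than in HO. Of the 4 crypt base secretory genes, Reg4 fell (-7.75) and the Notch ligand Dll1 rose (0.75). Of 2 tested Paneth cell genes the antimicrobial ribonuclease Ang4 fell (-2.29), and the 5 defensins in the table did not exceed 0.658 FPKM. Both tested small intestine genes, Fabp6 and Mep1b, fell, and Sis and Lct were near 0 in every library. The 11 genes of the regulated secretion machinery split into 4 that rose and 5 that fell in HO. In DHO against HO, 5 of them were higher and 2 were lower. All tested genes split in both directions too, so nothing is read from these counts. In DHO against WT none of the 14 pan-epithelial genes passed the threshold in either direction, where 21.2% of tested genes did.

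Genes of immune, stromal and muscle cells moved in both directions. In HO against WT, where 33% of tested genes rose, 6 of 7 neutrophil genes, 7 of 7 macrophage genes, 5 of 6 fibroblast genes, 4 of 5 endothelial genes and 3 of 4 neuron and glia genes rose. All 6 smooth muscle genes, all 5 distal position genes and 2 of 4 B and plasma cell genes fell, where 38.4% of tested genes fell. The remaining neutrophil gene, Ly6g (HO median 40.6 FPKM, WT median 217.1), and the remaining neuron and glia gene, S100b (-0.60), fell as well. Ly6g also enters the neutrophil score. The neutrophil score spanned 0.49 to 7.67 in DHO, 7.24 to 9.35 in HO and 0.39 to 1.21 in WT. In DHO against HO, where 29.7% of tested genes fell, the same lists fell in 6, 7, 6, 5 and 3 genes. All 4 B and plasma cell genes, all 5 distal position genes and 4 of 6 smooth muscle genes rose, where 39% of tested genes rose. In DHO against WT, 4 macrophage genes and 1 neutrophil gene rose and 5 smooth muscle genes fell, where 12.5% of tested genes rose and 8.7% fell, and without DHO 8 and DHO 9 the counts were 1, 0 and 0. The part of these cell types in the levels of the 4 genes was not tested.

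Levels also divided by a property that crosses the genotypes. The noncoding RNA Gm15564 (chromosome 16, 35966751 to 35983329) was at 6.27 to 14.5 FPKM in 14 libraries and at most 0.074 FPKM in the other 17, and the labels do not name what separates them. Sycn was at 875.5 to 1698 FPKM in the 5 WT libraries with Gm15564 and at 1991 to 2577 FPKM in the 6 WT libraries without it, with no overlap. Mptx1 overlapped between the same sets (2041 to 3056 and 1361 to 3968 FPKM), as did Spink1 (242.8 to 603 and 542.9 to 1437 FPKM). Of all tested genes, 16.3% were lower without overlap in the WT libraries with Gm15564, and 18.5% in the DHO libraries with it.

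Among DHO libraries the division also ran through Mptx1 and Spink1. Mptx1 was at 22.1 to 989.4 FPKM in the 4 DHO libraries with Gm15564 and at 1068 to 3394 FPKM in the 6 without it, and Spink1 at 12.7 to 610.9 and 611.9 to 1618 FPKM. Neither overlapped, though for Spink1 the gap was 1 FPKM wide. Sycn overlapped (4.13 to 513 and 346.9 to 2035 FPKM). DHO 8 and DHO 9 are both in the set with Gm15564. In that set alone the log2 difference of DHO against WT was -3.46 for Mptx1, -3.97 for Sycn and -1.90 for Spink1. In the set without it the difference was -0.17 for Mptx1, -1.13 for Sycn and 0.16 for Spink1.

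**Figure D4:**
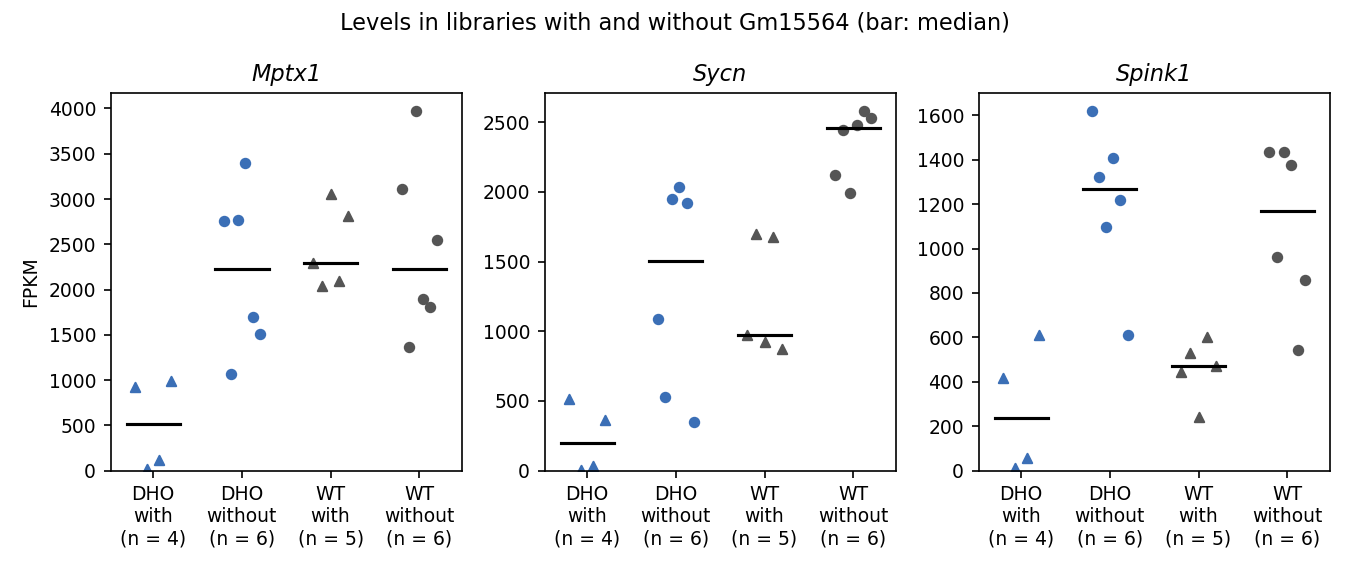
FPKM of Mptx1, Sycn and Spink1 in DHO and WT libraries with Gm15564 (triangles, n = 4 DHO and 5 WT) and without it (circles, n = 6 each), with bars for medians. The WT libraries separate for Sycn (at most 1698 and at least 1991 FPKM) and overlap for Mptx1.

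Within groups, the genes rose and fell together in DHO. Pairs of the 4 genes within each group gave 18 relations, tested by two-sided permutation of 100000 resamples and adjusted over the 18. In the 10 DHO libraries Mptx1 and Sycn had r = 0.978 (permutation p = 0.0002, adjusted 0.00264) and rho = 0.903 (permutation p = 0.00092, adjusted 0.0166). Mptx1 and Spink1 had r = 0.977 (permutation p = 0.00034, adjusted 0.00264) and rho = 0.855 (permutation p = 0.00301, adjusted 0.0271), and Sycn and Spink1 r = 0.966 (permutation p = 0.00044, adjusted 0.00264) and rho = 0.806 (permutation p = 0.00705, adjusted 0.0317). Without DHO 8 and DHO 9 the 3 values of r were 0.802, 0.700 and 0.686, and in the 6 DHO libraries without Gm15564 they were 0.717, 0.374 and 0.583. The 4 with Gm15564 were too few for a value.

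Other groups held fewer such relations. In HO, Sycn and Spink1 had r = 0.970 (permutation p = 0.00078, adjusted 0.00351) and rho = 0.753 (permutation p = 0.0196, adjusted 0.0706), and r was 0.534 without HO 2 and HO 10, so this relation rested on those libraries. In WT they had r = 0.733 (permutation p = 0.0111, adjusted 0.0399) and rho = 0.591 (permutation p = 0.0609, adjusted 0.137). In the 6 WT libraries without Gm15564 r was -0.722, so the relation did not hold within that set, and the 5 with Gm15564 were too few for a value. Mptx1 and Sycn had r = -0.371 in WT (permutation p = 0.261, adjusted 0.469) and rho = -0.446 (permutation p = 0.173, adjusted 0.318). By both measures 3 of the 18 relations passed after adjustment, all in DHO and all among Mptx1, Sycn and Spink1. The share of other gene pairs that would pass in DHO was not computed, so these relations are not shown to be particular to the 3 genes.

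Genes ordered most like each of the 3 within groups, by the mean of Spearman's rho over DHO, HO and WT (31 libraries), are given as a description. The order within HO rests on ties and few fragments, with medians of 2.5 for Mptx1, 1 for Sycn and 4 for Spink1. In HO, 4, 5 and 3 libraries held no fragment of these genes. For Mptx1 they included Klk1, a kallikrein protease (0.723), Isca2, a mitochondrial iron and sulfur cluster factor (0.704), and Il18, an epithelial cytokine (0.703). For Sycn they were the homeobox gene Mnx1 (0.897), the deiodinase Dio1 (0.810), the peptidase Naaladl1 (0.788) and Mettl7a3 (0.786). For Spink1 they were Smim22 (0.891), Grtp1 (0.888), the hormone Ppy (0.872) and the small GTPase Rab25 (0.857). Sycn and Spink1 had 0.716 with each other, Mptx1 and Spink1 0.463, and Mptx1 and Sycn 0.304. Many other genes were ordered more alike. Of 12796 genes ranked by likeness to Sycn, Spink1 was 23rd and Mptx1 3006th. By likeness to Spink1, Sycn was 165th and Mptx1 2469th, and by likeness to Mptx1, Spink1 was 298th and Sycn 1258th.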

How the data were processed

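Colon RNA of 31 mouse libraries was extracted with TRIzol, and the VAHTS Universal V6 kit was used for the libraries, per the labels' protocols. Per the submitters' processing notes, fastp, HISAT2, HTSeq and the build mm10 were used by the authors. No source used here gives their versions, the annotation or the strand setting. The deposited table gives FPKM computed by the authors for 27623 genes. Libraries were grouped by the labelled genotype and numbered in order of listing.

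From these values, log2(FPKM + 0.5) was modelled with limma 3.58.1 (R 4.3.3, variance trend, robust moderation), as 1 mean for each group from all 31 libraries. A gene was tested if 10 or more libraries reached 1 FPKM (12812 genes), two-sided, with Benjamini-Hochberg adjustment over all of them and a threshold of 0.05. The fit was also run on simulated data in which all groups had the means and spread of WT, apart from a set of changed genes. Such data lack the wide spread of DHO and the HO values near 0, so nothing is read from that run. Fold changes of low genes are understated on this scale. Whole fragments were recovered from low FPKM values. The total of WT 1 came from 378 genes that gave the same total at GENCODE exon lengths. The other libraries were scaled to it by the most frequent ratio of low values, on which 256 to 477 genes agreed. All values of the 4 genes under 300 fragments came out whole within 0.05 fragments. The step of each gene was picked to make its low values whole and values of 0 count as whole, so this outcome was largely fixed in advance. Counting limits cover counting error only. No pair of libraries was identical (highest correlation 0.996). Correlations used SciPy 1.17.1 in Python 3.11.15.

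The 4 genes and the 20 gene lists were chosen with earlier results of these data known. The named genes are the 4 genes, Gm15564, Epcam, Muc2 and Atoh1, up to 4 genes of each list with the smallest p in HO against WT, and the 4 genes ordered most like each of the 3 tested ones. Genes without an established symbol, pseudogenes, antigen receptor segments, Xist and Y-linked genes were left out of the last group, and 1 gene that the rule takes is not reported here. Other genes named were chosen after their values were seen, among them Tradd, Vil1, Insl5, Retnlb, Krt20, Xbp1, Prss2, Cpa1, Pnlip, Crp, Sis and Lct. Cyp2c55, Car1, Slc51b, Ly6g and Sst were also named in this way. Alternatives were another pseudocount, filter, scaling or moderation, and fits without HO 2, without DHO 8 and DHO 9, and by Gm15564.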

Additional observations from a re-analysis of the deposited data

Results flagged for a closer look

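In DHO and HO (10 libraries each), the highest and the lowest library of each of the 4 genes were set against the others, and 4 of the 8 gene and group pairs examined had a library far from the rest. The gap to the nearest library was taken as a share of the range of FPKM. Chance flags about 1 in 20 where values are normally distributed. The FPKM were not transformed and many HO values are at 0, so that rate need not hold here. The 11 WT libraries were not examined in this way. All 4 were the highest HO library. HO 10 held 5.19 FPKM of Mptx1 (143 fragments), against 0 to 0.883 FPKM in the other HO libraries. HO 2 held 25.6 FPKM of Sycn, against 0 to 1.78 FPKM in the others, and 54.4 FPKM of Spink1, against 0 to 1.17 FPKM. HO 1 held 0.0357 FPKM of Mptx2, a single fragment, against 0 in the other 9 HO libraries, so its flag follows from the 9 values at 0 and shows nothing more.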

How the results depend on the processing

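HO stayed below WT and DHO above HO for the 4 genes under every alternative run that gave a value. The number of genes called in DHO against WT was 2719, and 3042 without HO 2, 1306 without DHO 8 and DHO 9, 4550 with the Gm15564 division as a term, 68 in the libraries without Gm15564 alone and 5102 in those with it alone. Fewer libraries enter all of these but the division as a term, and the cause was not otherwise tested. With a pseudocount of 0.1, Mptx1 differed by -13.17 for HO against WT and 11.68 for DHO against HO, and Mptx2 by -1.58 (HO, WT), 0.80 (DHO, HO) and -0.78 (DHO, WT), since a smaller pseudocount widens differences near 0. In the libraries without Gm15564 alone, Mptx1 was at 11.93 for DHO against HO, and in those with it alone at 7.61, with -3.46 for DHO against WT, and Sycn at 6.39 for DHO against HO. Spink1 in DHO against WT, at -0.59, turned to 0.43 without DHO 8 and DHO 9 and to 0.16 in the libraries without Gm15564, and the cause was not tested. Without the 2 libraries farthest from the median, r turned sign for Mptx1 with Sycn in HO (-0.23), Mptx1 with Spink1 in HO (-0.23), Mptx1 with Mptx2 in WT (-0.16) and Mptx1 with Spink1 in WT (-0.15), none of which had passed the threshold. No paired analysis was possible because the labels give the libraries no replicate numbers that link the groups. Depth limits Mptx2 and the HO values most.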
